A study of Rattus norvegicus with 20 samples.

Results

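Ccl2, Ccl20, Cxcl1, Cxcl2, Cxcl10, Nfkbia, Tnfaip3, Icam1, C3 and Sod2 are chemokine and NF-kB response genes, taken from a list of gene names, and they make up 10 of the 14217 genes measured here in rat islets. They were chosen with earlier results of these data known. Each was read at its brightest probe set, and each has only 1. The islets came from Wistar rats, males of 8 weeks of age, and were measured on 20 Affymetrix arrays, 5 in each of 4 groups. The islets were kept in medium with 8 mM glucose and 10% serum and were either left without virus (untreated) or given an adenovirus for GFP (green fluorescent protein), Nr4a1 or Nr4a3 for 18 h, and all were collected at 48 h. Nr4a1 and Nr4a3 are orphan nuclear receptors, and the series asks whether they raise cell cycle genes of a beta cell proliferation pathway. The untreated islets are the control for the virus, and the GFP islets are the control for both receptors. All virus groups share the adenoviral vector, which reaches any islet cell it can enter, so a sample mixes transduced and other cells of several types, and the promoter that drives each delivered gene is not stated in the labels.

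NF-kB is a family of transcription factors held in the cytoplasm by inhibitor proteins until cytokines, microbial products or cell stress activate the IKK kinases. It then switches on chemokines that call in white blood cells, adhesion and complement genes, protective enzymes, and its own inhibitors, which end the response. In islets, interleukin 1 and tumour necrosis factor are well-known triggers of this response in beta cells, and resident macrophages are a known source of interleukin 1.

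The stretches of promoter that hold a match to the NF-kB consensus are shown because such a motif is a sequence feature that NF-kB response genes may share. RefSeq promoter windows (GRCr8, from 250 bases before to 50 bases after the start of the gene) were held for 9 of the 10 genes, all but Ccl2. The consensus, searched on both strands, matched in 6 of these 9 windows and in 1400 of all 33469 windows (4.18%). The genes were listed as NF-kB response genes, so a share above that of all windows can follow from this choice and is no separate support for it. Capitals mark the match in each stretch, which is written 5′ to 3′ on the gene's own strand, and where capitals run past the motif's length overlapping matches were merged.
Ccl20: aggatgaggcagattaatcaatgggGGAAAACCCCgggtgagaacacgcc
Cxcl1: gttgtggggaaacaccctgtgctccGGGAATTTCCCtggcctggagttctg
Cxcl2: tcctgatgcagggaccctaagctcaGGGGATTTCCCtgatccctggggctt
Cxcl10: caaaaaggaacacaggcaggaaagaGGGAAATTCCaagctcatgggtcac
Nfkbia: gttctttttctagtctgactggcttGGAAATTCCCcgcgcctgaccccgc
Tnfaip3: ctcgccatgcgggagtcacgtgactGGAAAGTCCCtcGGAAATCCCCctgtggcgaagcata
Icam1: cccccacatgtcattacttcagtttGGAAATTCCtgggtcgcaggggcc
Nfkbiz: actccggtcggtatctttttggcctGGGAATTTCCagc

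The Ccl20 stretch lies at chr9:91837045-91837094 on the plus strand, and its match begins 89 bases before the start. The Cxcl1 and Cxcl2 stretches lie at chr14:17479380-17479430 and chr14:17467304-17467354, both on the minus strand, with matches that begin 84 and 74 bases before the start. Cxcl10 lies on the same chromosome, at chr14:15988854-15988903 on the plus strand, and its match begins 187 bases before the start. The Nfkbia match, in chr6:78597079-78597128 on the minus strand, begins 31 bases before the start. Tnfaip3, at chr1:15544010-15544071 on the minus strand, shows a pair of matches that begin 67 and 55 bases before the start, and another match begins 170 bases before it. Icam1, at chr8:27829602-27829650 on the plus strand, had no match to the consensus and is shown for the shorter GGAAATTCC, which begins 218 bases before its start. That shorter motif, chosen after the windows had been read and overlapping the consensus, was found on either strand in Cxcl1, Cxcl10, Nfkbia and Icam1, that is in 4 of 9 windows, and in 0.332% of all windows. Nfkbiz, at chr11:58251683-58251720 on the plus strand, is not one of the 10 genes. Its values ran closest to theirs, and it is shown because its window held a match. For the genes next in likeness, Cidec, Rgs4, Birc3 and Saa3, no match was found. Whether windows were held for them is not stated, so Nfkbiz does not stand for the genes most alike. C3 and Sod2 had no match to either motif in their windows.

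Array medians lay between 98.9 and 103 in linear intensity, and the islet hormone genes Ins1 (14.66 to 15.06, log2 intensity) and Gcg (14.37 to 14.85) were bright on every array. Nr4a3 replicate 2 stood apart, with a mean correlation to the other arrays across genes of 0.941, against 0.982 to 0.989 for the other 19, and a beta-actin difference between the 3′ and 5′ control probe sets of 4.62, against 1.50 to 2.21. Groups follow the titles, which name GFP, Nr4a1 and Nr4a3 as the characteristics and design do, although the protocol text speaks of beta-galactosidase and Nkx6.1 viruses. The Nr4a1 probe set averaged 5.99 in the arrays labelled Nr4a1 and 6.07 in the GFP arrays, and the Nr4a3 probe set averaged 5.82 in the arrays labelled Nr4a3 and 5.63 in the GFP arrays, so neither rose in the arrays of its own label (limma adjusted p = 0.775 and 0.421). The Nr4a3 probe set rose in the arrays labelled Nr4a1 (log2 difference 0.44, limma adjusted p = 0.00562). Whether these probe sets lie in the part that the virus carries is not known here, and every direction below rests on the labels. Replicates are labelled biological, but the animals behind them are not given, so each p measures the spread between these samples. In bulk islet RNA, fewer cells of a type and less RNA per cell cannot be told apart.

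None of the 10 genes differed between groups beyond the spread of the replicates, and that spread was itself very large. Within a group, Cxcl1 differed up to 67.8-fold between arrays, while its group means differed by at most 1.93-fold. The genes varied together from array to array, and in each group the same array was lowest for most of them. Values are given below as log2 intensity, in the order of replicates 1 to 5.

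Cxcl1 and Cxcl2 encode chemokines that attract neutrophils through a shared receptor. Cxcl1 read 6.97, 10.97, 9.45, 10.31 and 8.69 in untreated islets, 10.00, 11.86, 11.14, 5.78 and 11.02 in GFP islets, 8.93, 10.79, 7.10, 11.65 and 11.95 in the arrays labelled Nr4a1, and 10.96, 11.15, 11.39, 10.00 and 7.62 in those labelled Nr4a3. The lowest array of all 20 was GFP replicate 4 and the highest was Nr4a1 replicate 5, a 72.4-fold distance, and the 4 groups overlapped throughout. Cxcl2 read 5.76, 8.26, 7.13, 7.41 and 6.97 in untreated islets, 7.56, 8.95, 8.22, 5.50 and 8.13 with GFP, 6.88, 7.65, 6.30, 8.71 and 8.80 with Nr4a1, and 7.87, 7.98, 8.33, 7.17 and 6.44 with Nr4a3. GFP replicates 2 and 4 held both the highest and the lowest Cxcl2 value of the series, 10.9-fold apart. The low arrays were the same for both genes: untreated replicate 1, GFP replicate 4, Nr4a1 replicate 3 and Nr4a3 replicate 5.

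Ccl2 and Ccl20 encode chemokines that draw monocytes, and lymphocytes and dendritic cells, respectively. Ccl2 read 10.09, 11.40, 10.52, 10.50 and 11.28 in untreated islets, 11.15, 11.65, 10.98, 9.58 and 11.12 with GFP, 11.07, 10.78, 9.94, 11.61 and 11.84 with Nr4a1, and 10.81, 12.02, 11.48, 10.19 and 10.39 with Nr4a3. Group means of Ccl2 lay within 0.29 of each other, and its highest value was in Nr4a3 replicate 2, the array that stood apart in quality. Ccl20 read 5.93, 7.49, 6.15, 7.29 and 6.12 in untreated islets, 7.69, 7.93, 7.67, 5.72 and 7.67 with GFP, 6.62, 7.61, 6.22, 8.37 and 8.07 with Nr4a1, and 7.53, 6.75, 7.66, 7.17 and 6.32 with Nr4a3. Of the GFP arrays, 4 lay above every untreated array for Ccl20, and the remaining one, replicate 4, lay below them all. Ccl20 had the largest share of its variance between groups among the 10 genes, 16%, against a median of 19.4% over all genes.

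Cxcl10 encodes a chemokine for T cells that is driven by interferons as well as by NF-kB. Cxcl10 read 6.77, 7.77, 7.68, 8.19 and 7.66 in untreated islets, 8.41, 8.40, 7.76, 6.44 and 8.57 with GFP, 7.29, 7.07, 6.77, 8.16 and 7.97 with Nr4a1, and 7.51, 7.41, 8.13, 7.73 and 6.82 with Nr4a3. The 3 highest values were GFP arrays, and so was the lowest.

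Nfkbia encodes the inhibitor IkB-alpha, which holds NF-kB in the cytoplasm, and Tnfaip3 encodes A20, a ubiquitin-editing enzyme that shuts off signalling to the IKK kinases. Nfkbia read 9.48, 11.00, 10.33, 10.69 and 10.13 in untreated islets, 10.59, 11.34, 11.20, 9.43 and 10.89 with GFP, 9.89, 10.40, 9.40, 10.53 and 11.00 with Nr4a1, and 10.73, 11.19, 10.72, 10.33 and 9.71 with Nr4a3. Tnfaip3 read 7.69, 8.47, 8.02, 8.53 and 7.88 in untreated islets, 8.21, 9.69, 8.98, 7.30 and 8.77 with GFP, 7.74, 8.38, 7.17, 8.74 and 8.76 with Nr4a1, and 8.38, 8.54, 8.66, 7.91 and 7.47 with Nr4a3. GFP replicate 4 and Nr4a1 replicate 3 were the lowest arrays of their groups for both inhibitors, and GFP replicate 2 was the highest of all 20. Nfkbia had the smallest spread of the 10 genes, with a 3.82-fold distance from its lowest to its highest array.

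Icam1 encodes an adhesion molecule that white blood cells bind. Icam1 read 8.29, 9.64, 8.52, 9.37 and 9.05 in untreated islets, 8.93, 10.19, 9.44, 7.72 and 9.72 with GFP, 8.80, 9.20, 8.15, 9.70 and 9.77 with Nr4a1, and 9.50, 8.06, 9.54, 9.16 and 8.67 with Nr4a3. Its lowest Nr4a3 array was replicate 2, and it was the only one of the 10 genes that was lowest there. In that array 4 of the 10 genes were below their group means, by 0.92 for Icam1, 0.47 for C3, 0.33 for Ccl20 and 0.11 for Cxcl10. Ccl2, Cxcl1 and Nfkbia were among those above. C3 encodes the central complement protein, and Sod2 the superoxide dismutase of mitochondria. C3 read 8.80, 12.62, 10.77, 11.40 and 10.58 in untreated islets, 11.47, 12.52, 12.82, 8.83 and 11.61 with GFP, 9.86, 11.99, 8.98, 11.35 and 12.24 with Nr4a1, and 12.47, 10.70, 11.61, 11.28 and 9.77 with Nr4a3. Sod2 read 11.43, 13.69, 12.36, 13.03 and 12.32 in untreated islets, 12.97, 13.74, 13.56, 11.21 and 13.26 with GFP, 12.40, 13.37, 11.48, 13.27 and 13.62 with Nr4a1, and 13.34, 12.79, 13.10, 12.91 and 11.74 with Nr4a3. C3 spanned 16.2-fold and Sod2 5.77-fold over the 20 arrays, and in each group both were lowest in the array in which Cxcl1 was lowest.

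**Figure D1:**
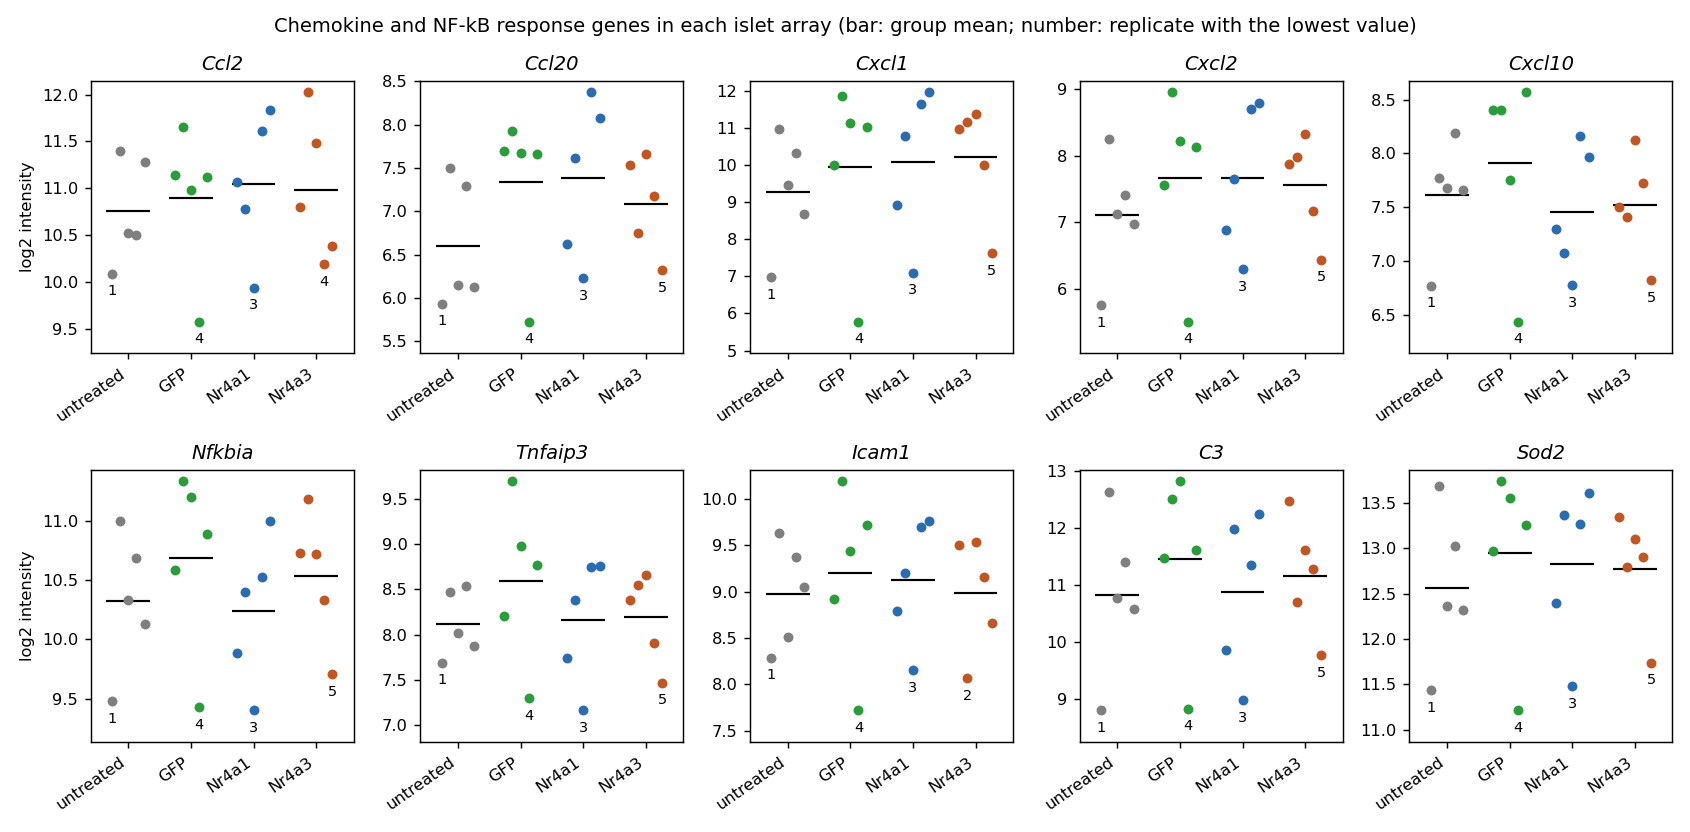
Log2 intensity of each of the 10 genes on each array, with points for the 5 replicates of a group in order from left to right, a bar for the group mean, and the number of the replicate with the lowest value. Replicate 1 of the untreated, 4 of the GFP and 3 of the Nr4a1 arrays are lowest in all 10 panels, and the groups overlap in every panel.

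The comparison of GFP with untreated islets asks what the virus itself does to these genes. All 10 were higher on average with GFP, by a median log2 difference of 0.43 against -0.02 over all genes, but none passed the test. The largest difference was Ccl20, at 0.74 ± 0.46 (SE, n = 5 per group), with a 95% interval from -0.22 to 1.69. Cxcl1 differed by 0.68 ± 1.10, C3 by 0.62 ± 0.78, Cxcl2 by 0.57 ± 0.60 and Tnfaip3 by 0.47 ± 0.37. The other 5, Sod2, Nfkbia, Cxcl10, Icam1 and Ccl2, differed by 0.14 to 0.38. Because the genes moved together from array to array, 10 of 10 differences on the same side are not 10 independent observations. Of the 10 genes, 0 were called by limma at an adjusted p under 0.05 (adjusted p = 0.9997 for each) and 0 had an unadjusted p under 0.05. Over all 14217 genes 0 were called (0%) and 412 had an unadjusted p under 0.05. Ranges of the groups did not overlap for 0 of the 10 genes, against 0.605% of all genes.

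Single arrays moved the size of these differences either way. Without GFP replicate 4, the lowest GFP array, the differences were larger, at 1.72 ± 0.96 for Cxcl1, 1.27 ± 0.72 for C3, 1.14 ± 0.41 for Ccl20 and 1.11 ± 0.53 for Cxcl2. Without untreated replicate 1, the lowest untreated array, they were smaller, at 0.10 ± 1.13 for Cxcl1, 0.11 ± 0.77 for C3, 0.57 ± 0.48 for Ccl20 and 0.23 ± 0.61 for Cxcl2. Without GFP replicate 2 the difference was -0.05 for Ccl2 and -0.02 for Icam1, and without untreated replicate 1 it was -0.03 for Ccl2. In each of these fits 0 of the 10 genes were called by limma. Over all genes 0 were called there as well for GFP against untreated, so these missing calls are not particular to the 10 genes. All 3 virus groups were also pooled against untreated, a comparison added after the data had been seen. Ccl20 was then higher by 0.67 ± 0.37 (15 arrays against 5, 95% interval -0.11 to 1.45, limma adjusted p = 0.473) and Cxcl10 by 0.01 ± 0.30. Of the 10 genes 0 were called, against 1.19% of all genes.

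The comparisons of each receptor with GFP ask what Nr4a1 or Nr4a3 adds to the virus. Both use the same 5 GFP arrays, so their values are given side by side and not as evidence for each other. In the arrays labelled Nr4a1, the differences from GFP were -0.57 ± 0.78 (log2, SE) for C3, -0.46 ± 0.37 for Cxcl10, -0.44 ± 0.36 for Nfkbia and -0.43 ± 0.37 for Tnfaip3. In the arrays labelled Nr4a3 they were -0.28 ± 0.78 for C3, -0.40 ± 0.37 for Cxcl10, -0.15 ± 0.36 for Nfkbia and -0.40 ± 0.37 for Tnfaip3. The neutrophil chemokine Cxcl1 differed by 0.13 ± 1.10 with Nr4a1 and 0.27 ± 1.10 with Nr4a3, and Ccl2 by 0.15 ± 0.41 and 0.08 ± 0.41.

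Of the 10 genes, 0 were called by limma for Nr4a1 against GFP, against 8.71% of all genes, and the smallest adjusted p was that of Cxcl10 at 0.579. For Nr4a3 against GFP 0 of 10 were called, against 1.93% of all genes, with the smallest adjusted p at 0.668, again for Cxcl10. In each of these comparisons 0 of the 10 genes had an unadjusted p under 0.05. Medians over the 10 genes were -0.10 with Nr4a1 and -0.19 with Nr4a3, against -0.00 and 0.00 over all genes, and 3 and 2 of the 10 differences were above 0. The ranges of the groups did not overlap for 0 of the 10 genes in either comparison, against 16.2% and 4.63% of all genes.

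Single arrays moved these differences too. Without GFP replicate 4 Cxcl10 differed from GFP by -0.83 ± 0.31 with Nr4a1 (limma adjusted p = 0.123) and by -0.77 ± 0.31 with Nr4a3 (adjusted p = 0.310). The sign of Cxcl1 was not settled. With each array left out in turn its difference from GFP ran from -0.92 (without GFP replicate 4) to 0.87 (without Nr4a1 replicate 3) with Nr4a1, and it was also below 0 without Nr4a1 replicate 2, 4 or 5. With Nr4a3 it ran from -0.78 (without GFP replicate 4) to 0.92 (without Nr4a3 replicate 5), and it was also below 0 without Nr4a3 replicate 3. Both receptor groups pooled against GFP, a comparison added after the data had been seen, gave -0.43 ± 0.32 for Cxcl10 and -0.41 ± 0.32 for Tnfaip3 (10 arrays against 5, limma adjusted p = 0.551 and 0.576). Of the 10 genes 0 were called there, against 6.93% of all genes.

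Nr4a1 against Nr4a3 asks where the receptors differ from each other. The differences ran from -0.29 ± 0.36 for Nfkbia to 0.29 ± 0.46 for Ccl20, with 5 above and 5 below 0 and a median of 0.01. None of the 10 passed the test (smallest limma adjusted p = 0.747, and 0 at an unadjusted p under 0.05), against 0.633% of all genes called. Group ranges overlapped for all 10, against 2.66% of all genes whose ranges did not. The 95% interval reached 0.76 to either side of the difference for Nfkbia, which is 1.69-fold, and 2.30 for Cxcl1, which is 4.93-fold. These intervals are not adjusted for the number of genes, so a call would need a measured difference beyond these bounds. With 5 arrays per group, true differences inside an interval are not excluded.

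**Figure D2:**
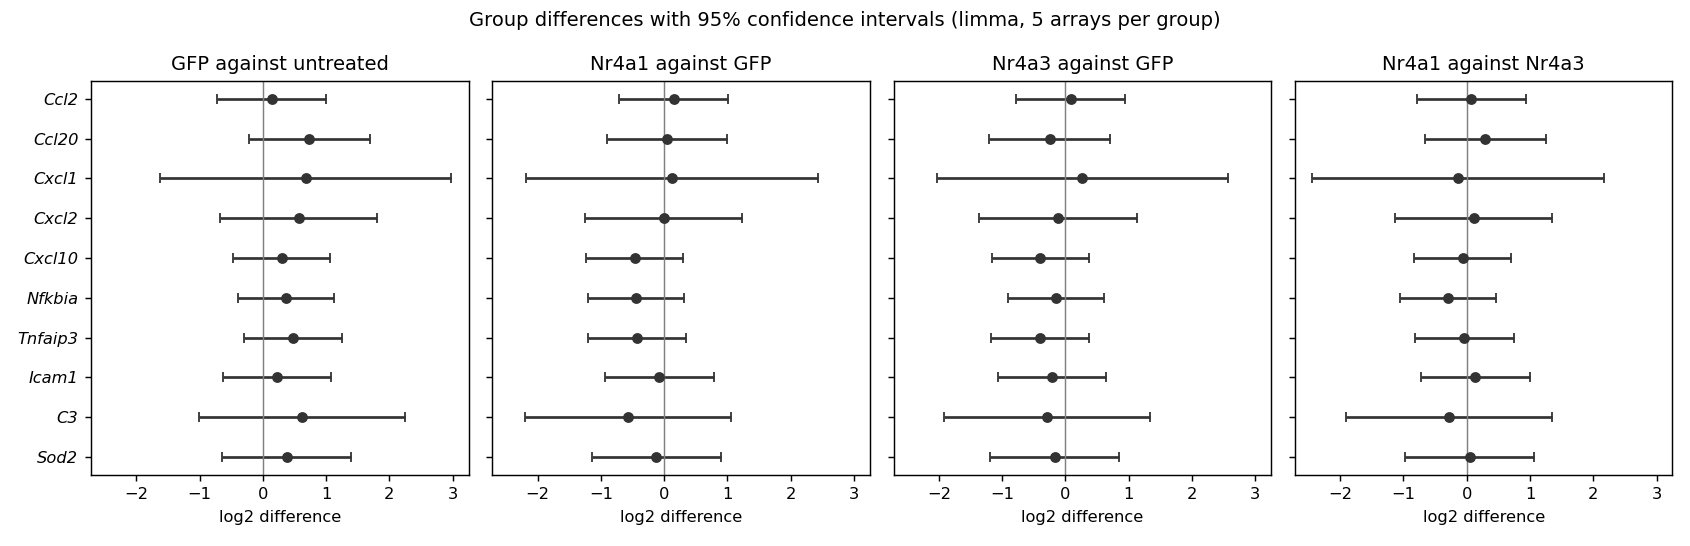
Log2 difference of each of the 10 genes in the 4 comparisons, first group minus second, with 95% confidence intervals from limma (5 arrays per group, 20 arrays in the fit). Every interval crosses 0, and the widest are those of Cxcl1 and C3.

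Among all genes, these 10, chosen with earlier results of these data known, stood near the top in how much replicates of a group differed. Cxcl1, with a within-group SD of 1.93 on the log2 scale, ranked 1 of 14217 genes, C3 ranked 6 (SD 1.36) and Cxcl2 ranked 28 (SD 1.04). Sod2 ranked 68, Ccl20 84, Ccl2 114, Icam1 117, Tnfaip3 171, Cxcl10 180 and Nfkbia 191, and only 1.34% of all genes had a larger SD than Nfkbia. The median within-group SD was 0.757 over the 10 genes and 0.182 over all genes. Groups accounted for 2.12% (Icam1) to 16% (Ccl20) of the variance of a gene, against a median of 19.4% over all genes. Some share of this kind is found even where groups do not differ.

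**Figure D3:**
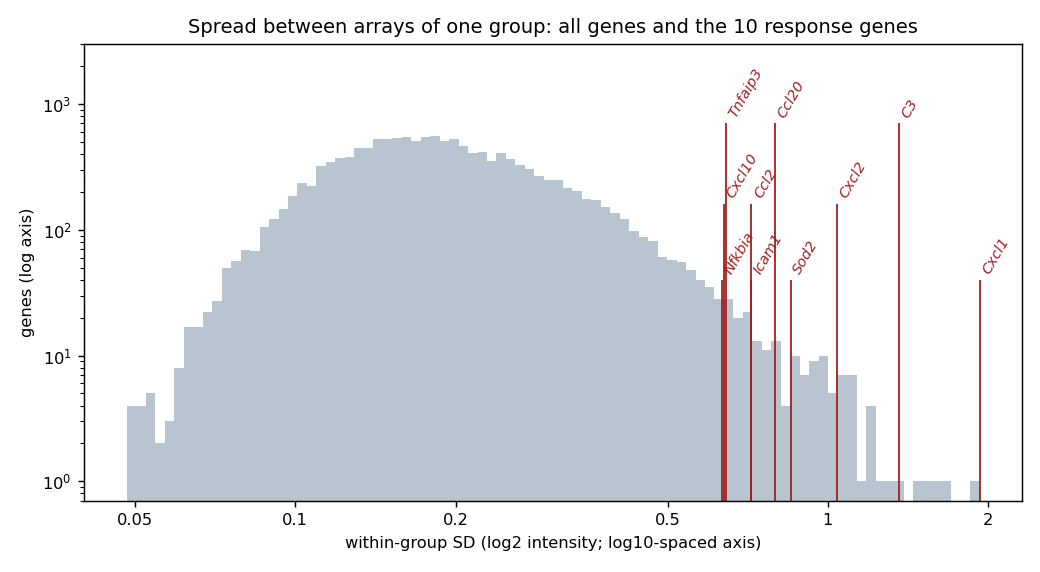
Number of genes, on a log axis, by the SD between arrays of a group, on a log-spaced axis in log2 intensity, for all 14217 genes (grey), with a line at each of the 10 genes (heights differ only to separate the names). All 10 lie in the right tail, from Nfkbia at 0.632 to Cxcl1 at 1.93.

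The 10 genes went up and down together within groups. Each value was set against the mean of its group, and over the 45 pairs of genes Pearson's r of these deviations ran from 0.59 to 0.98 with a median of 0.85 (20 arrays, Spearman's rho 0.50 to 0.99, median 0.82). These correlations are descriptions, and their points share arrays and normalization. The neutrophil chemokines Cxcl1 and Cxcl2 and the pair of C3 and Sod2 had the highest values, both at 0.98. Ccl2 followed the others least, with a median r of 0.72 to the other 9 genes and its lowest r, 0.59, to Icam1. Without Nr4a3 replicate 2 the r of Ccl2 and Icam1 was 0.86 and the median over pairs 0.92. Without GFP replicate 4 and Nr4a1 replicate 3, the arrays farthest from the median, r ran from 0.31 to 0.97 with a median of 0.75, and 19 of 45 pairs were above 0.8 in place of 33.

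Averaged over the 10 genes in units of each gene's within-group SD, GFP replicate 4 lay at -2.05, Nr4a1 replicate 3 at -1.41, untreated replicate 1 at -1.14 and Nr4a3 replicate 5 at -1.04. In each of these 4 arrays all 10 genes were below their group mean. At the other end lay GFP replicate 2 at 1.06, Nr4a1 replicate 5 at 0.98 and untreated replicate 2 at 0.94, where all 10 were above it. Each group thus held at least 1 low array, and the replicate numbers of the low arrays differed between groups. With the RNA quality measures, the r of this average was 0.10 for the GAPDH difference between the 3′ and 5′ control probe sets, 0.12 for that of beta-actin and -0.03 for the mean correlation to other arrays. Without Nr4a3 replicate 2 these were 0.21, 0.25 and 0.17. It was -0.60 for the array median, which ranged only from 98.9 to 103, and the part of that median in the result was not tested.

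Genes outside the 10 whose deviations ran closest to this average included other NF-kB response genes. Likeness was the smaller of r over all 20 arrays and r without Nr4a3 replicate 2. The 5 most alike were Nfkbiz (r = 0.98), an inducible nuclear member of the IkB family, Cidec (0.97), a lipid droplet protein, Rgs4 (0.97), a regulator of G protein signalling, Birc3 (0.96), an inhibitor of apoptosis that NF-kB induces, and Saa3 (0.95), an acute phase protein. Nfkbiz ranged from 7.52 in GFP replicate 4 to 10.04 in GFP replicate 2, and Saa3 from 6.76 in untreated replicate 1 to 12.28 in Nr4a1 replicate 5. Rgs4 was bright and ranged only from 12.30 to 13.27. None of the 5 was called between groups (limma adjusted p of at least 0.693 in each comparison). Likeness was above 0.8 for 190 of the other 14207 genes (1.34%), and the median r over all genes was 0.03.

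**Figure D4:**
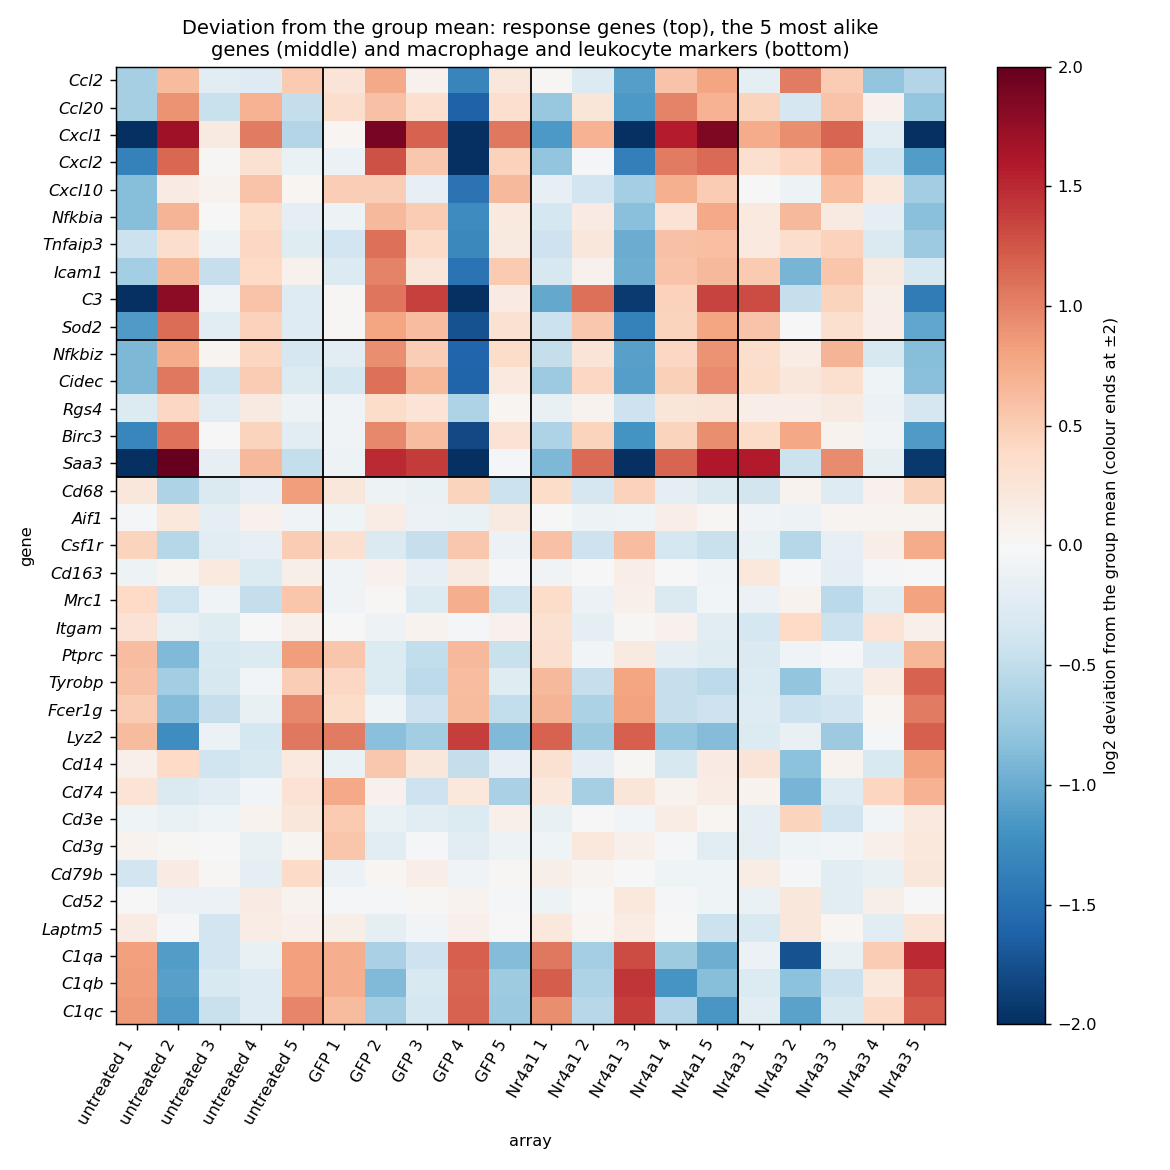
Log2 deviation from the group mean (colour, ends at ±2) of the 10 genes, the 5 most alike genes and 20 macrophage and leukocyte markers, in rows, on the 20 arrays, in columns grouped as untreated, GFP, Nr4a1 and Nr4a3. Untreated 1, GFP 4, Nr4a1 3 and Nr4a3 5 are blue in the upper blocks, where the complement genes C1qa, C1qb and C1qc at the bottom are red.

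The rest of the chemokine and NF-kB pathway was read from lists of 205 genes, of which 177 were measured. These lists too were chosen with earlier results of these data known. Likeness to the 10 genes was above 0.8 for 19 of the 177 (10.7%), beside 1.34% of all other genes. Of the other chemokines these were Ccl3 (r = 0.83), Cxcl3 (0.94) and Cxcl11 (0.89), 3 of 23, and of the chemokine receptors 0 of 16. Of the inflammatory cytokines they were Il1a (0.89), Il1b (0.92) and Ltb (0.91), 3 of 14, while Tnf, which encodes tumour necrosis factor and stayed between 6.47 and 6.94, had an r of -0.30. Il1b, the secreted interleukin 1 of activated macrophages, ranged from 5.43 to 8.09. Of the receptors and adaptors Cd40 was alike (0.88, 1 of 25), and of the IKK kinases and NF-kB subunits Nfkb2 (0.94, 1 of 10).

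The list of feedback inhibitors also holds the nuclear IkB family gene Nfkbiz and the adaptor gene Traf3ip2. Of its genes 5 of 12 were alike, the largest share among these lists. They were Nfkbiz, Zc3h12a (0.93), which degrades cytokine transcripts, Bcl3 (0.91), Nfkbib (0.90) and Tnip1 (0.86), a partner of A20. Of the survival, adhesion and effector genes 5 of 23 were alike, namely Birc3, the iron carrier gene Lcn2 (0.95), Ptges (0.90), Mmp9 (0.87) and Fas (0.85). Of the other enzymes against superoxide and peroxide, 0 of 16 were alike. Sod1, the cytosolic dismutase, had an r of 0.30 and Sod3, the extracellular one, of -0.58. Of the 18 complement genes C9 was alike (0.86), and C1qb and C1qc ran opposite to C3 and the other 9.

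Of the interferon response genes 0 of 20 were alike, with an r of -0.08 between their mean and the average of the 10 genes. Cxcl10, which interferons also induce, had an r of -0.04 with the mean of the interferon list.

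Between groups, the pathway lists held 11 genes called for Nr4a1 against GFP, 9 higher and 2 lower (6.21% of 177, beside 8.71% of all genes), and 2 higher for Nr4a3 against GFP (1.13%, beside 1.93% of all genes), while 0 were called for GFP against untreated and for Nr4a1 against Nr4a3 by limma. The share called was thus no higher in these lists than over the whole array. No gene of the chemokine, chemokine receptor or IKK and NF-kB subunit lists was among them. Of the calls under Nr4a1, 5 kept an adjusted p under 0.05 in every alternative that tested them, leaving out each array in turn included. Sod3 rose by 1.06 ± 0.20 (log2, SE, limma adjusted p = 0.00169), from a mean of 7.45 with GFP to 8.51. Cd55, which protects cells from complement, rose by 0.999 ± 0.20 (adjusted p = 0.00284). Usp18, an interferon-induced protease that removes ISG15, rose by 0.86 ± 0.18 (adjusted p = 0.00467). Prdx4, a peroxidase of the endoplasmic reticulum, rose by 0.47 ± 0.11 (adjusted p = 0.0102), and Traf3ip2, an adaptor of interleukin 17 signalling, fell by 0.44 on the log2 scale (SE 0.11, adjusted p = 0.0124). Cd55 read 5.05 to 5.35 in the GFP arrays and 5.61 to 6.56 in the arrays labelled Nr4a1, with no overlap. Sod3 read 7.16 to 7.62 with GFP and 7.96 to 8.91 with Nr4a1, also with no overlap, although untreated islets read up to 8.29.

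The other 6 calls under Nr4a1 were lost in some alternative. Il1r1, the receptor for interleukin 1, fell by 0.63 on the log2 scale (SE 0.18, limma adjusted p = 0.0341) and lost the call without any of GFP replicates 2, 3 and 5 and Nr4a1 replicates 1, 4 and 5 (adjusted p = 0.0518 to 0.116). Ripk1, a kinase downstream of the tumour necrosis factor receptor, rose by 0.30 ± 0.08 (adjusted p = 0.0188), lost the call without GFP replicates 4 or 5 or Nr4a1 replicate 4 (adjusted p = 0.0559 to 0.0639), and differed by 0.05 in the mean of its probe sets (adjusted p = 0.868). Cflar, an inhibitor of caspase 8, rose by 0.32 ± 0.09 (adjusted p = 0.0267) and lost the call without GFP replicates 1, 2 or 3 or Nr4a1 replicates 1 or 4 (adjusted p = 0.0598 to 0.0846). Txn2, the mitochondrial thioredoxin, rose by 0.24 ± 0.07 (adjusted p = 0.0361) and lost the call without any GFP replicate or any Nr4a1 replicate other than 3 (adjusted p = 0.0565 to 0.0972). It also lost the call under repeated quantile normalization.

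Il18, a cytokine of the interleukin 1 family, rose by 0.49 ± 0.15 (limma adjusted p = 0.0443) and lost the call without any of 12 arrays, namely untreated replicates 2 and 4, GFP replicates 1 to 4, Nr4a1 replicates 1 to 4 and Nr4a3 replicates 1 and 3 (adjusted p = 0.0510 to 0.145). Irf7, a transcription factor of the interferon response, rose by 0.48 ± 0.14 (adjusted p = 0.0434) and lost the call without any of 13 arrays, namely untreated replicates 2, 4 and 5, GFP replicates 2 to 5, Nr4a1 replicates 1, 3 and 5 and Nr4a3 replicates 1, 3 and 4 (adjusted p = 0.0510 to 0.151). For Nr4a3 against GFP, Usp18 rose by 0.89 ± 0.18 (adjusted p = 0.0137), with a call lost in a fit to only the 10 arrays compared (0.115) and without GFP replicate 5 (0.0501). Cd55 rose by 0.80 ± 0.20 (adjusted p = 0.0406), with a call lost in a fit to only the 10 arrays compared (0.151) and without any of 14 arrays, namely untreated replicates 1, 2 and 4, every GFP replicate, Nr4a1 replicates 4 and 5 and Nr4a3 replicates 1, 2, 3 and 5 (adjusted p = 0.0505 to 0.108). This call was also lost with log2 of the value plus 16, with all probe sets and with the mean of probe sets. Under Nr4a1, Irf7 also lost its call with only the 10 arrays compared and with all probe sets, and Il18 with all probe sets.

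Most macrophage and leukocyte markers moved the opposite way to the 10 genes within groups. Of 20 markers, all measured, 16 had a negative r with the average of the 10 genes, and the most negative were those of C1qb (-0.87), Lyz2 (-0.86), C1qc (-0.85) and Csf1r (-0.82), which encodes the receptor that macrophages need. Aif1 had the highest r, 0.49, and Cd14 0.10. The median r was -0.59 over these markers and 0.03 over all genes. A negative r was not particular to these markers. It was found for 12 of 12 endothelial, 19 of 19 acinar, 9 of 9 other islet hormone cell and 9 of 12 beta cell markers. For fibroblasts and stellate cells it was 13 of 15, also with a median r of -0.59, and for duct cells 3 of 10. C1qb read 8.40 in untreated replicate 1, 7.85 in GFP replicate 4, 8.39 in Nr4a1 replicate 3 and 7.67 in Nr4a3 replicate 5, the arrays low in the 10 genes, and 6.49 in untreated replicate 2, 5.81 in GFP replicate 2 and 6.10 in Nr4a1 replicate 5, where the 10 genes were high. The match was not strict. C1qb also read 8.39 in untreated replicate 5 and 7.42 in GFP replicate 1, where the average of the 10 genes was -0.13 and 0.04. Between groups 0 of the 20 markers were called by limma in each of the 4 comparisons. Over all genes the shares called were 0% for GFP against untreated and 8.71% for Nr4a1 against GFP. They were 1.93% for Nr4a3 against GFP and 0.633% for Nr4a1 against Nr4a3. With only 20 markers, 0 calls lie near these shares.

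The summed intensity of the 20 markers ranged from 2575 to 5538 in untreated islets, 2066 to 3968 with GFP, 2098 to 4336 with Nr4a1 and 1704 to 4078 with Nr4a3. It was highest in its group in GFP replicate 4, Nr4a1 replicate 3 and Nr4a3 replicate 5, and in untreated islets it was highest in replicate 5 and next highest, at 4935, in replicate 1. Over all 20 arrays the r between the mean deviation of the markers and the average of the 10 genes was -0.81 (rho -0.73), and it was -0.80 without GFP replicate 4 and Nr4a1 replicate 3 and -0.82 without Nr4a3 replicate 2. In the 12 arrays with the markers below their group mean, the average of the 10 genes was between -0.17 and 1.06 and above 0 in 11. In the 8 arrays with the markers above it, the average of the 10 genes was between -2.05 and 0.04 and below 0 in 7. Within the 12 arrays r was -0.27 (rho -0.13) and within the 8 it was -0.35 (rho -0.10). A cut on the markers themselves narrows their range, which can weaken r. These subsets therefore cannot show whether the relation holds within them or lies only between them. C1qa, C1qb and C1qc stand on both the complement and the macrophage list, and the part of the macrophages in the values of the 10 genes was not tested.

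**Figure D5:**
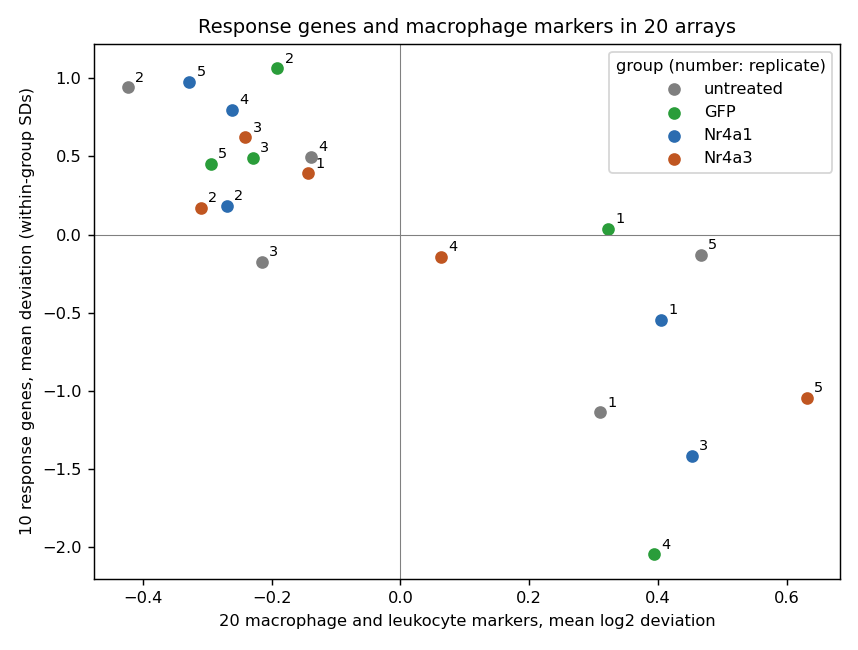
Average deviation of the 10 genes, in within-group SDs, against the mean log2 deviation of 20 macrophage and leukocyte markers, for 20 arrays coloured by group and numbered by replicate. The 12 arrays on the left have averages from -0.17 to 1.06, and the 8 on the right from -2.05 to 0.04.

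Of the markers of other cells, those of fibroblasts and stellate cells had an r of -0.61 with the average of the 10 genes (20 arrays, list means), other islet hormone cells -0.53, endothelial cells -0.45, acinar cells -0.26, beta cells -0.24 and duct cells 0.26. Without GFP replicate 4 and Nr4a1 replicate 3 that of endothelial cells was -0.18. For Nr4a1 against GFP 16 of 19 acinar markers rose, with a list median of 2.43, and 8 of 12 endothelial and 5 of 12 beta cell markers fell, beside 876 rises and 363 falls among all 14217 genes. For Nr4a3 against GFP 1 acinar marker rose, with a list median of 0.84, and 2 endothelial and 1 beta cell marker fell, beside 249 rises and 25 falls. The 10 chemokine and NF-kB response genes had medians of -0.10 and -0.19 in these comparisons, with 0 calls, and the part of these cells in their values was not tested.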

How the data were processed

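Gene expression was measured on 20 arrays, 5 per group. The deposited table holds intensity values of probe sets on a linear scale. Per the submitters' processing notes the authors made them with RMA (robust multi-array average: background correction, quantile normalization and a summary over probes), and its version is not stated there. For this report they were log2-transformed, with no pseudocount. Array batches were not used here. Of 31099 probe sets, 57 are controls, and of the others 20826 have 1 gene symbol, 436 have several and 9780 have none in the array's probe table. A gene with several probe sets (4525 of 14217 genes) was read at the brightest, by its mean over the series.

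Group means were estimated with limma 3.58.1 under R 4.3.3 in a single fit of all 20 arrays (16 residual and 3.64 prior degrees of freedom). The Benjamini-Hochberg adjustment ran over all genes, with calls made below 0.05. The small number of arrays limits what can be resolved.

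The genes named are the 10 members, up to 3 called genes with the smallest adjusted p per pathway list and comparison, and the 5 most alike. Other genes of the lists, such as those with a likeness above 0.8, Tnf, Sod1 and single cell markers, were named after their values were seen. Members and lists were chosen with earlier results of these data known. Motifs were searched with Python 3.11.15. Alternatives were fits to only those 10 arrays under comparison, a block for the replicate number, trended and robust variance, array weights, repeated quantile normalization, median centring, genes above the median level, log2 of the value plus 16, all probe sets, the mean of probe sets, and leaving out each array.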

Additional observations from a re-analysis of the deposited data

Results flagged for a closer look

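Ccl20 in GFP replicate 4 read 5.72 (log2 intensity), far below the nearest GFP array at 7.67. The gap is 0.881 of the range of the 5 GFP arrays, above Dixon's 95% critical value of 0.71. Of 40 combinations of gene and group tested this way, 1 passed, and chance alone passes about 1 in 20. The same array was the lowest GFP array for all 10 genes.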

How the results depend on the processing

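Under 12 other settings, each where it applied, and 20 fits that each left out 1 array, 0 of the 10 genes were called in each of the 4 comparisons, 1208 values in all, and the lowest adjusted p was 0.0882, for Cxcl10 in Nr4a1 against GFP with limma array weights. Not all of the 1208 were free to move. For GFP against untreated, 0 of all genes were called in every setting other than the pooled virus groups. The missing calls there are not particular to the 10 genes. The pooled comparisons, which ask a different question, are counted among the 12 settings. Each of the 10 genes has 1 probe set, so the probe set settings kept its values. The replicate block, and leaving out an array of a group not compared, kept each log2 difference and changed only its SE and p. The sign of an uncalled value changed in 81 of the 1208. The filter on genes above the median level left Ccl20, Cxcl2 and Cxcl10 without a value. Counts over all genes moved more. With only the 10 arrays compared, 2853 genes were called for Nr4a1 against GFP, 122 for Nr4a3 against GFP and 1 for Nr4a1 against Nr4a3. With array weights they were 3576, 1027 and 274. With genes above the median level only, 135 were called for Nr4a3 against GFP, and with the mean of 3 virus groups in place of GFP 169 differed from untreated. Leaving out 1 array gave 742 (without Nr4a1 replicate 1) to 2714 (without Nr4a3 replicate 2) for Nr4a1 against GFP, 127 (without Nr4a3 replicate 1) to 527 (without Nr4a3 replicate 2) for Nr4a3 against GFP, and 43 (without Nr4a1 replicate 1) to 133 for Nr4a1 against Nr4a3. The cause was not tested. Same-numbered arrays mostly did not deviate together (r -0.30 to 0.50 over 30 pairs, median -0.03, 7 above 0.1, 4 of 20 arrays closest to their own number). Whether arrays of a number share an islet preparation is not known here, and these r values cannot settle it. With the replicate number as a block, 0 of the 10 genes were called, and over all genes the calls were 1088 for Nr4a1 and 204 for Nr4a3, each against GFP, 70 between the receptors and 0 for the virus itself. Of the pathway genes called for Nr4a1, Il18, Il1r1 and Txn2 lost the call there (limma adjusted p = 0.0601, 0.0664 and 0.0589), as did Cd55 for Nr4a3 (0.0542).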
